A study of Mus musculus with 18 samples.

Results

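The genes of the receptors for glutamate and GABA were followed in the hippocampus and the cortex of mice given urban particulate matter (UPM) through the nose. Members were the gene symbols of the AMPA, kainate, NMDA, delta and metabotropic glutamate receptors and of the GABA-A and GABA-B receptors with at least 10 counts in at least 9 of 18 libraries. Of 23238 symbols, 31 such genes are described here. They are 4 AMPA genes, 5 kainate genes, 6 NMDA genes, 1 delta gene, 6 metabotropic glutamate genes, 7 GABA-A genes and 2 GABA-B genes. All 31 reached 10 counts in each of the 18 libraries, with Grin2a the lowest at 12 to 95 counts. Just outside the minimum, Gabrg3 reached 10 counts in 4 libraries and Gabrq in 2. The other 8 symbols under the minimum, Gabra6, Gabre, Gabrp, Gabrr1, Gabrr2, Gabrr3, Grin2d and Grm6, had fewer than 10 counts in every library.

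The mice were male C57BL/6 animals, 7 weeks old when dosing began. UPM, the reference dust SRM 1648a in phosphate-buffered saline, was given either daily over 3, 5 or 7 days (short-term) or 2 times weekly over 3, 8, 12, 16 or 20 weeks (long-term), and controls were given the saline alone. Pooling of RNA within a group left 5 long-term, 3 short-term and 1 control library for hippocampus and the same for cortex, and the length of the control treatment is not given. Libraries of different times therefore served as replicates, and every p-value measures the spread between pooled libraries, not between mice. Exposure length cannot be told apart from age, total dose and dosing rhythm. The libraries read transcripts at their 3' end, so a level is given as CPM, the counts scaled to a common library size, and is compared between libraries, not between genes.

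Glutamate opens the AMPA, kainate and NMDA receptor channels, which are assembled from several subunits and carry most fast excitation in the brain, and it also acts more slowly through the metabotropic receptors, which signal through G proteins. GABA opens the GABA-A receptor, a chloride channel that usually combines alpha, beta and gamma types, and it activates the metabotropic GABA-B receptor. Which subunits a neuron uses sets the conductance, kinetics and drug response of its receptors, and hippocampal pyramidal and granule cells are known to differ from cortical neurons in this respect.

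Several GABA-A genes lie side by side in clusters. In the cluster on chromosome 5, Gabra2 was higher in hippocampus, Gabra4 was lower and Gabrg1 was not called either way. The 3 promoter windows of these genes are shown. They are given with the windows of Grm3 and Gabra3, which were lower in hippocampus at each of the 9 times. Sequences are from RefSeq on GRCm38.p6, on the strand of the gene, 5' to 3', and end just before the RefSeq start site or, for Gabra4, before the bases that GENCODE M21 places in an exon. Capitals mark 3 motifs searched on both strands, so that some appear as the reverse complement: the GC box (GGGCGG), the CCAAT box, and the TATA box (TATAAA).
Gabrg1, chr5:70842618-70842867, minus strand: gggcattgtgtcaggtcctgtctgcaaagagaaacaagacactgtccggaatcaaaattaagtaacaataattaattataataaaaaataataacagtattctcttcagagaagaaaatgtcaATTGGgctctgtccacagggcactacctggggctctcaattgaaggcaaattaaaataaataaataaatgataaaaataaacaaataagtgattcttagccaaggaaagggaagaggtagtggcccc
Gabra2, chr5:71095850-71096099, minus strand: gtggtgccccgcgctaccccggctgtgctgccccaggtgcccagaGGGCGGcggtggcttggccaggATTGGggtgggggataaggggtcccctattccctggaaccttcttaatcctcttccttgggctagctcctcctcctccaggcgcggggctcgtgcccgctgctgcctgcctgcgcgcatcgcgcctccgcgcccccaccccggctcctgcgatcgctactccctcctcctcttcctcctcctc
Gabra4, chr5:71658364-71658558, minus strand: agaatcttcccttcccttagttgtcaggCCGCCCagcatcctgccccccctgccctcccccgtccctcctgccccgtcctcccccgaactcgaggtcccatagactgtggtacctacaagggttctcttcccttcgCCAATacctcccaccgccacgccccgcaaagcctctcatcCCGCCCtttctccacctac
Grm3, chr5:9725353-9725602, minus strand: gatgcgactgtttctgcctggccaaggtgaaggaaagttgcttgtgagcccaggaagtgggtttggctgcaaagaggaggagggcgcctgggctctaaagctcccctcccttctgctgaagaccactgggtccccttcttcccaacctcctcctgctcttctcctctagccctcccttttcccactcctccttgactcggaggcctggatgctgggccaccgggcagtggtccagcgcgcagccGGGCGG
Gabra3, chrX:72656920-72657169, minus strand: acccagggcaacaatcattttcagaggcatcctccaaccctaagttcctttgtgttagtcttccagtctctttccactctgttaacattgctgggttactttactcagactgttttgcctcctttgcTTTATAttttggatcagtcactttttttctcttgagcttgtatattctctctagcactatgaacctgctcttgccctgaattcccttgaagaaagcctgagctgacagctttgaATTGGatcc
Of the 31 members, 21 had a window in the RefSeq table, with 28 windows in all. The GC box was in 14 of the 28 windows, against 32.7% of the 32851 windows of all genes. The CCAAT box was in 10 of 28, against 33.8% of all. The TATA box was in 4 of 28, against 12.4% of all, and the 4 belong to Gabra3, Gabrb2 and Grin3b. Of the windows printed, those of Gabra2 and Gabra4 hold a GC box and a CCAAT box, that of Gabrg1 a CCAAT box, that of Grm3 a GC box, and that of Gabra3 a TATA box and a CCAAT box. These matches describe letters only.

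The libraries held 5434067 to 8967430 counts, of which the members took 0.370% to 0.598%. The columns of the files were named in 2 styles that split the libraries into 2 sets. The libraries of 3, 5 and 7 days and 3 weeks form the early set of 8, and those of control and 8 to 20 weeks form the other set of 10. The sets stood apart over the whole transcriptome: Rn45s, the ribosomal RNA precursor, made up 14.83% to 18.61% of an early library, against 7.75% to 12.88% of a library of the other set. The nuclear RNA Meg3 had 1100 to 2570 CPM in early libraries, against 6530 to 13200 CPM in the other set. Of 9 hippocampal marker genes all were higher in hippocampus and of 8 cortical markers 7 were lower. Markers of the neighbouring striatum differed widely within cortex, with a sum of 62.2 to 157 CPM in hippocampus and 174 to 1080 CPM in cortex, although Drd2 stayed at or under 3 counts in every library.

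The receptor genes were first compared between the tissues. With exposure time as a factor, 16 of 31 members passed in hippocampus against cortex (9 libraries each; edgeR quasi-likelihood test, adjusted p under 0.05), where 16.9% of all 14865 genes did. Of these, 6 were higher in hippocampus (7.6% of all genes) and 10 were lower (9.26% of all genes). The median log2 fold change of the 31 members was 0.02, against 0.00 for all genes. Members thus differed in both directions, with AMPA subunit Gria1 at the top and GABA-A subunit Gabrd at the bottom. In these tissue homogenates, fewer cells of a type and less RNA per cell cannot be told apart.

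**Figure D1:**
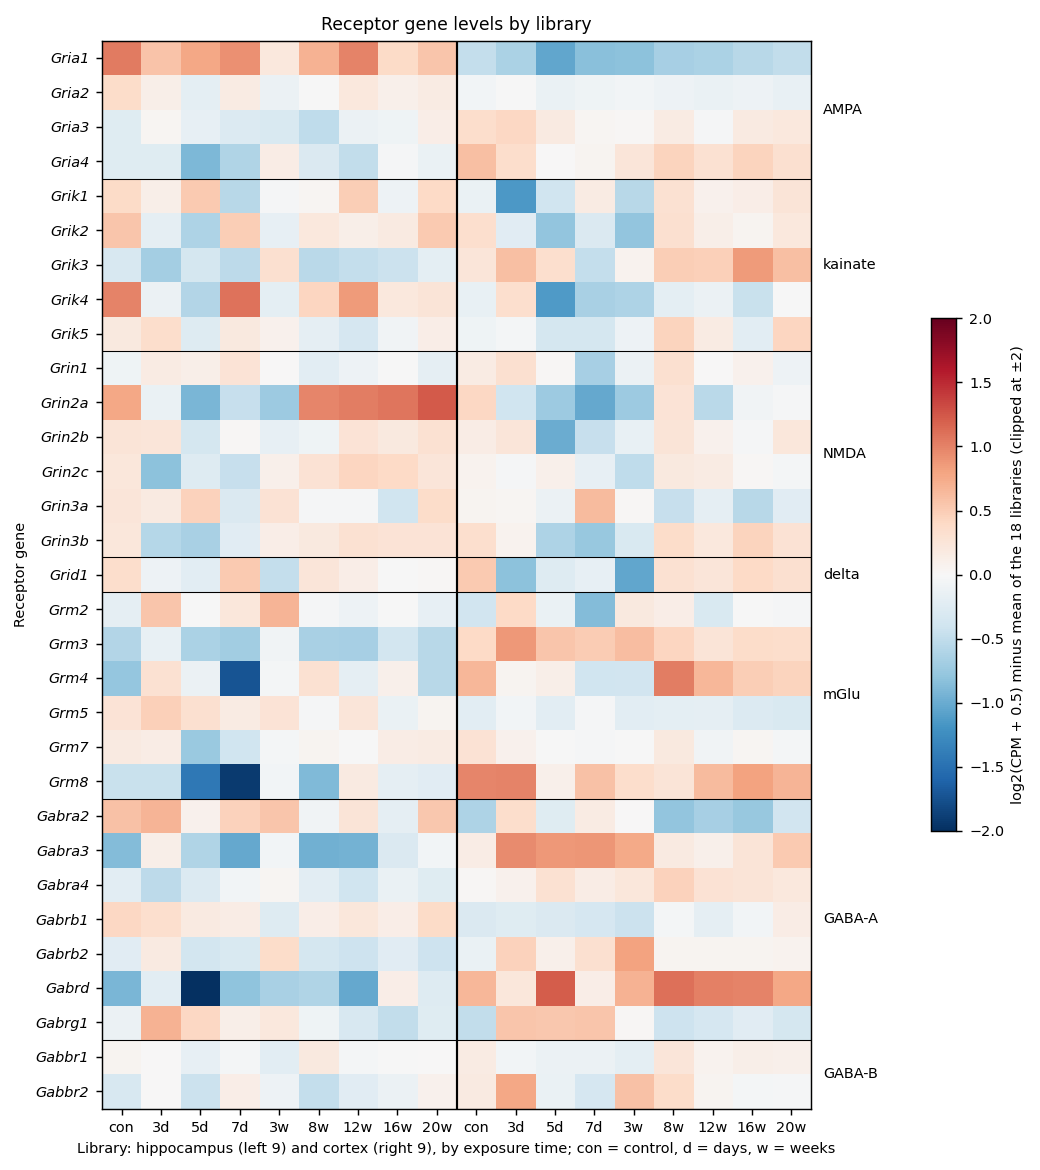
Levels of the 31 receptor genes (rows, grouped by family) in the 18 libraries (columns, hippocampus left and cortex right, control first and then by exposure time). Colour is log2(CPM + 0.5) minus the mean of the gene over the 18 libraries, clipped at 2 either way; Gria1 is red in all 9 hippocampal columns, and Grm3, Gabra3 and Gabrd are red mostly in the cortical ones.

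AMPA receptor genes, which form the main excitatory channel, moved apart within the family. Gria1, a subunit that is recruited to synapses in long-term potentiation (chromosome 11, 57011387 to 57330244, GRCm38), had 769, 1080 and 1370 CPM as the lowest, median and highest of 9 hippocampal libraries, against 322, 428 and 477 CPM in cortex. Every hippocampal value was above every cortical one, which is true of 2.01% of all genes in either direction. The difference was a log2 fold change of 1.37 ± 0.10 SE (adjusted p = 7.67e-08, higher in 9 of 9 times). The lowest hippocampal values, 769 CPM at 3 weeks and 868 CPM at 16 weeks, belonged to the libraries with the highest sums of cortical markers, 397 and 430 CPM, against 206 to 311 CPM in the other 7 hippocampal libraries. Without those times, a setting added after seeing the data, the fold change of Gria1 was 1.48 ± 0.10. The part of cortical RNA in the Gria1 values was not tested.

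Gria3 and Gria4, which join with other subunits in AMPA receptors, were lower in hippocampus. Gria4 had 24.3, 38.2 and 50.6 CPM (lowest, median, highest) in hippocampus, against 45.5, 57.0 and 69.2 CPM in cortex, a log2 fold change of -0.62 ± 0.09. Its hippocampal values reached into the cortical range only at 3 weeks, but it was lower in hippocampus at every time. Gria3 had 235, 298 and 369 CPM in hippocampus, against 331, 379 and 448 CPM in cortex (-0.34 ± 0.07, lower in 9 of 9 times). Gria2, the subunit that keeps calcium from passing through the channel, did not pass over all libraries, with 692, 864 and 1030 CPM in hippocampus and 720, 740 and 790 CPM in cortex (0.18 ± 0.07, adjusted p = 0.0837 by edgeR), although DESeq2 and limma-voom called it. Within control and 8 to 20 weeks it was higher in hippocampus (0.27 ± 0.07, adjusted p = 0.0171), a call that was lost without 12 or without 20 weeks.

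The balance of the AMPA subunits therefore differed between the tissues. Gria1 made up 41.8% to 53.0% of the AMPA counts of a hippocampal library, against 21.8% to 28.8% of those of a cortical one. The log2 ratio of Gria1 to Gria2 averaged 0.34 ± 0.24 in hippocampus and -0.85 ± 0.19 in cortex (SD, n = 9 times). The difference of 1.18 ± 0.36 had the same sign in 9 of 9 times (exact sign-flip permutation test, two-sided p = 0.00391, the smallest that 9 times allow; 0.00977 adjusted over 5 subunit pairs). As shares of the counts of the 31 members, AMPA genes had a median of 45.8% in hippocampus and 36.0% in cortex.

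**Figure D2:**
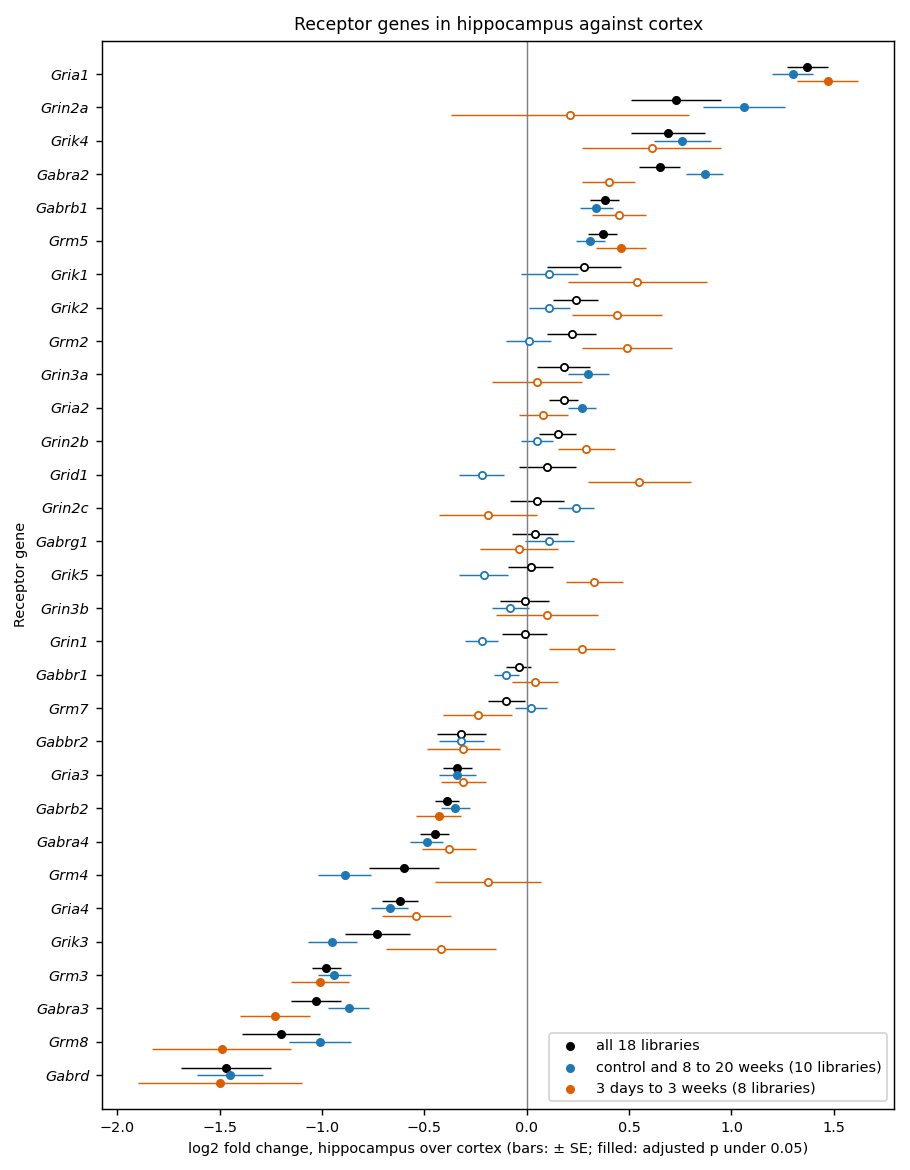
Log2 fold change of each receptor gene, hippocampus over cortex, with its SE, over all 18 libraries (black), over control and 8 to 20 weeks (blue) and over 3 days to 3 weeks (orange); filled points passed at an adjusted p under 0.05. Gria1 lies at 1.37 and Gabrd at -1.47 over all libraries.

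Kainate receptor genes split in the same way. Grik4, a high-affinity subunit known from mossy fibre synapses in the CA3 field, had 8.49, 15.6 and 28.2 CPM in hippocampus (lowest, median, highest), against 5.68, 11.3 and 16.6 CPM in cortex. The ranges overlapped, and it was higher in hippocampus in 8 of 9 times (0.69 ± 0.18, adjusted p = 0.0121). Grik3, a low-affinity channel subunit, had 9.97, 12.0 and 20.5 CPM in hippocampus, against 11.5, 22.8 and 29.9 CPM in cortex, and was lower in 8 of 9 times (-0.73 ± 0.16). Grik1, Grik2 and Grik5 did not pass, at 0.28 ± 0.18, 0.24 ± 0.11 and 0.02 ± 0.11. The ratio of Grik1 to Grik2 differed by 0.04 ± 0.77 between hippocampus and cortex (SD, n = 9 times, exact permutation p = 0.875).

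Among the NMDA receptor genes, whose channels need both glutamate and a co-agonist, 1 of 6 passed over all libraries. Grin2a, the subunit that increases as synapses mature, had 2.26, 8.45 and 11.7 CPM in hippocampus, against 2.06, 3.46 and 6.49 CPM in cortex (0.73 ± 0.22, adjusted p = 0.0331). In control and at 8, 12, 16 and 20 weeks Grin2a had 8.45, 9.72, 10.1, 10.5 and 11.7 CPM in hippocampus. In cortex it had 6.49, 5.83, 3.09, 4.49 and 4.63 CPM, without overlap, a separation not counted over all genes (1.06 ± 0.20, adjusted p = 0.00338). At 3, 5 and 7 days and 3 weeks it had 4.25, 2.26, 3.28 and 2.65 CPM in hippocampus and 3.46, 2.64, 2.06 and 2.65 CPM in cortex (0.21 ± 0.58). The difference between these fold changes was not tested. Its call over all libraries was lost without the control or without any of 8, 12, 16 and 20 weeks (fold change 0.59 to 0.78).

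The obligatory subunit Grin1 had 185, 213 and 259 CPM in hippocampus, against 134, 217 and 266 CPM in cortex, and the groups lay on top of each other (-0.01 ± 0.11). Grin2b, the subunit that prevails early in life, had 387, 567 and 608 CPM in hippocampus, against 248, 522 and 589 CPM in cortex (0.15 ± 0.09, adjusted p = 0.269 by edgeR). The log2 ratio of Grin2a to Grin2b differed by 0.48 ± 0.70 (SD, n = 9 times) and did not pass, with an exact permutation p of 0.0664. Grin2c, Grin3a and Grin3b had fold changes of 0.05 ± 0.13, 0.18 ± 0.13 and -0.01 ± 0.12. Grin3b and Grin1 may not be separated from a partner on the opposite strand, since whether reads were counted by strand is not given in the sources used here. Grin3b shares 1059 exonic bases with Tmem259, 1002 of them in the last 1500 bases of the gene. The counts of Tmem259 were 0.985 to 1.31 times those of Grin3b in every library. Grin1 shares 1307 exonic bases with Grin1os, 123 of them in the last 1500 bases of the gene. The counts of Grin1os were 0.669 to 0.848 times those of Grin1.

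Grid1, a delta receptor gene whose protein binds cerebellins at synapses, had 10.6 to 21.6 CPM in hippocampus, against 7.02 to 21.6 CPM in cortex, and did not pass (0.10 ± 0.14).

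The metabotropic glutamate receptors fall into 3 groups. In group I, which couples to phospholipase C, Grm5 was higher in hippocampus. It had 353, 456 and 537 CPM in hippocampus, against 312, 334 and 381 CPM in cortex (0.37 ± 0.07, adjusted p = 0.000625, higher in 9 of 9 times). The ranges overlapped between the tissues at their edges.

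In group II, which lowers cyclic AMP, Grm3 stood out. This receptor, present on neurons and astrocytes (chromosome 5, 9485541 to 9725170), had 43.4, 47.0 and 67.0 CPM in hippocampus, against 84.8, 95.7 and 129 CPM in cortex. No hippocampal value reached the lowest cortical one (-0.98 ± 0.07, adjusted p = 1.18e-07, lower in 9 of 9 times). Grm2, its partner in the group, did not pass, with 17.4, 19.8 and 31.9 CPM in hippocampus and 10.7, 19.4 and 26.3 CPM in cortex (0.22 ± 0.12). The annotated antisense gene Gm28111 covers 470 of the exonic bases of Grm2 at its end, so reads of the 2 genes may be mixed. The ratio of Grm2 to Grm3 was higher in hippocampus by 1.19 ± 0.46 on the log2 scale (SD, 9 of 9 times, exact permutation p = 0.00391, adjusted 0.00977).

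In group III, which sits mostly on axon terminals, Grm4 and Grm8 were lower in hippocampus and Grm7 did not pass (-0.10 ± 0.09). Grm8 had 2.69, 8.34 and 13.1 CPM in hippocampus, against 12.3, 18.1 and 23.3 CPM in cortex (-1.20 ± 0.19, adjusted p = 0.000189, lower in 9 of 9 times). Grm4 had 7.17, 22.8 and 30.6 CPM in hippocampus, against 18.6, 33.9 and 51.0 CPM in cortex (-0.60 ± 0.17, lower in 7 of 9 times). The call of Grm4 was lost without the control, without 12 weeks or without 20 weeks (fold change -0.49 to -0.57).

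**Figure D3:**
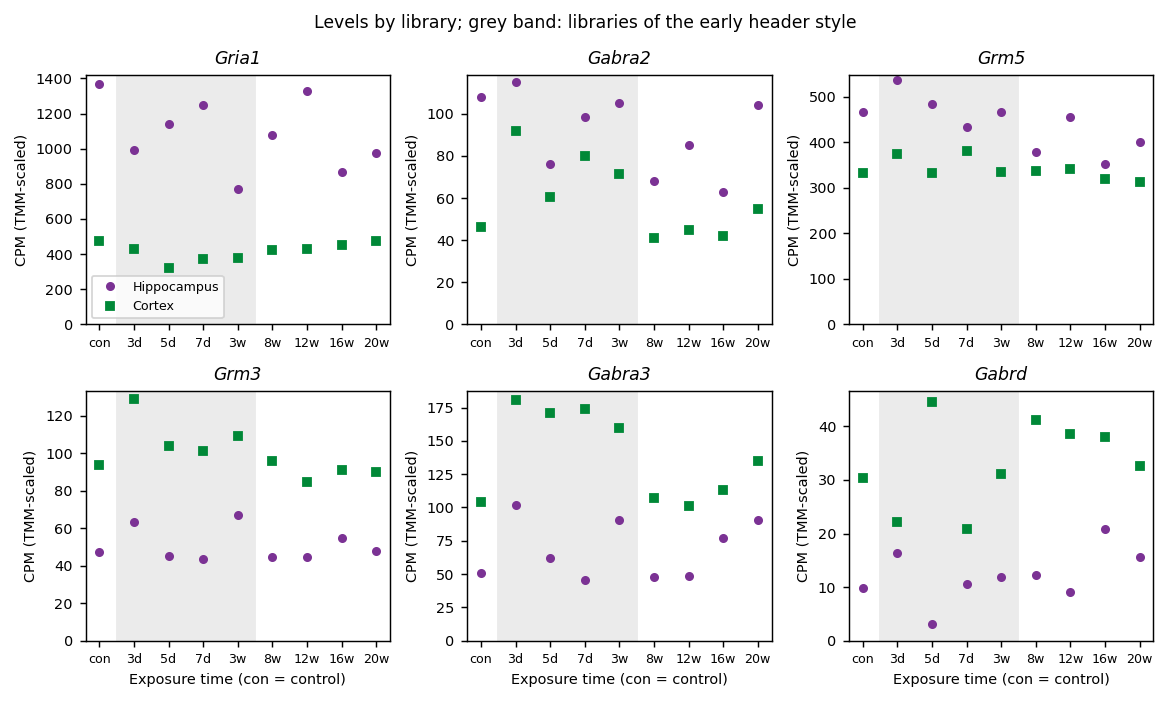
TMM-scaled CPM of 6 receptor genes by exposure time in hippocampus (purple circles) and cortex (green squares), 1 library per point; the grey band marks 3 days to 3 weeks. Gria1, Gabra2 and Grm5 lie higher in hippocampus at every time, and Grm3, Gabra3 and Gabrd lie lower at every time.

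Of 7 GABA-A receptor genes 2 were higher in hippocampus, 4 were lower, and Gabrg1 did not pass (0.04 ± 0.11). The alpha subunits set the response to benzodiazepines and the place of the receptor on the neuron. Gabra2, known from the axon initial segment of pyramidal cells, was higher in hippocampus, with 62.9, 98.4 and 115 CPM, against 41.1, 54.8 and 91.7 CPM in cortex (0.65 ± 0.10, adjusted p = 0.000105, higher in 9 of 9 times). Gabra3 had 45.8, 61.9 and 102 CPM in hippocampus, against 101, 135 and 181 CPM in cortex (-1.03 ± 0.12, adjusted p = 7.21e-06). Gabra4, which pairs with the delta subunit outside synapses, had 97.5, 121 and 144 CPM in hippocampus, against 143, 165 and 194 CPM in cortex (-0.45 ± 0.07). Gabra3 and Gabra4 were each lower in hippocampus in 9 of 9 times, with ranges that met at their edges.

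Gabrb1 and Gabrb2 make beta subunits, which carry part of the GABA site, and differed in opposite directions. Gabrb1 had 83.5, 113 and 133 CPM in hippocampus, against 74.1, 84.1 and 110 CPM in cortex (0.38 ± 0.07, higher in 9 of 9 times). Gabrb2 had 238, 256 and 411 CPM in hippocampus, against 289, 332 and 555 CPM in cortex (-0.39 ± 0.06, lower in 9 of 9 times).

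Gabrd, the delta subunit of receptors outside synapses, had 3.02, 11.9 and 20.8 CPM in hippocampus, against 20.9, 32.7 and 44.6 CPM in cortex, and the ranges did not overlap. Its fold change was the most negative of the 31, at -1.47 ± 0.22 (adjusted p = 0.000168). In cortex it was 44.6, 41.3, 38.6 and 38.1 CPM at 5 days, 8, 12 and 16 weeks, the 4 libraries with the highest sums of striatal markers, 1080, 880, 780 and 660 CPM. In the other 5 cortical libraries Gabrd was 20.9 to 32.7 CPM and the striatal sum 174 to 417 CPM. At the times of those libraries the striatal sum in hippocampus was 62.2 to 157 CPM. The part of striatal RNA in the Gabrd difference was not tested. In a smaller fit that left out the 4 times with the highest cortical sums in both tissues, Gabrd was at -1.08 ± 0.18. In that smaller fit 10 members passed, 4 higher and 6 lower, where 6.25% of all genes did. Gabra4, Gria3, Grik3, Grm4, Grik4 and Grin2a were the called members that did not pass in it.

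On chromosome 5 (GRCm38) the cluster holds, in order, Gabrg1 (70751047 to 70842617), Gabra2 (70957597 to 71095849), Gabra4 (71569749 to 71658308) and Gabrb1 (71658113 to 72149037). There Gabra2 and Gabrb1 were higher in hippocampus, Gabra4 was lower and Gabrg1 did not pass. Gabra4 and Gabrb1 start head to head, sharing 46 exonic bases at their 5' ends, and differed in opposite directions.

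Beside the tissue differences, 3 of 4 general neuron markers were lower in hippocampus (sums of 3390 to 4870 CPM in hippocampus and 4400 to 5540 CPM in cortex) and 3 of 4 astrocyte markers were higher (641 to 951 CPM and 515 to 759 CPM). Their part in the receptor differences was not tested.

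The GABA-B receptor works only as a pair of Gabbr1 and Gabbr2, and neither gene passed by edgeR. Gabbr1, which binds GABA, had 303, 351 and 404 CPM in hippocampus, against 308, 368 and 415 CPM in cortex (-0.04 ± 0.06). Gabbr2, which couples to the G protein, had 83.9, 108 and 128 CPM in hippocampus, against 91.9, 121 and 200 CPM in cortex (-0.32 ± 0.12, adjusted p = 0.0689 by edgeR), and was called lower by DESeq2 and limma-voom. The ratio of Gabbr1 to Gabbr2 differed by 0.27 ± 0.44 (SD, 6 of 9 times positive, exact permutation p = 0.109).

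**Figure D4:**
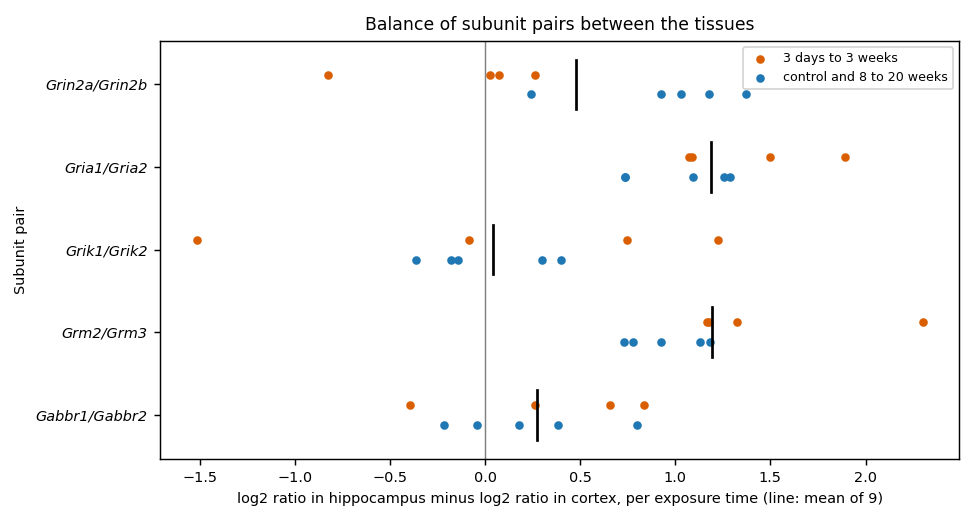
Log2 ratio of 5 subunit pairs in hippocampus minus the same ratio in cortex, 1 point per exposure time (orange 3 days to 3 weeks, blue control and 8 to 20 weeks) with the mean of 9 as a line. All 9 points of Gria1/Gria2 and Grm2/Grm3 are above 0, while those of Grin2a/Grin2b, Grik1/Grik2 and Gabbr1/Gabbr2 lie on both sides of it.

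The tissue difference was read again within each set of libraries. In control and 8 to 20 weeks 18 of 31 members passed, 8 higher and 10 lower in hippocampus, where 20.1% of all genes passed, 9.26% higher and 10.9% lower. The 10 lower were those of the full comparison, and the 8 higher were its 6 with Gria2 and Grin3a (0.30 ± 0.10). Of these 18 calls, those of Grm5 and Gabrb1 were lost without 12 weeks, that of Gria3 without the control or 8 weeks, and that of Grin3a without any of 8, 12, 16 and 20 weeks. In 3 days to 3 weeks 7 of 31 members passed, where 4.67% of all genes passed, 2.40% higher and 2.27% lower. Gria1 (1.47 ± 0.15) and Grm5 (0.46 ± 0.12) were higher, and Grm8, Gabrd, Gabra3, Grm3 and Gabrb2 were lower, from -1.50 ± 0.40 for Gabrd to -0.43 ± 0.11 for Gabrb2. Of these 7, Gria1, Grm3 and Gabra3 passed in every fit that left out 1 early library, and without the 5-day library of either tissue these 3 alone passed. Gabrd passed in 4, Grm8 in 3, Grm5 in 2 and Gabrb2 in 0 of the 8 fits. With exposure time as a factor, leaving out 1 library also removes its same-time partner from the tissue contrast. The 8 fits are therefore not 8 separate checks. The fold change of Gabrd in this set was -0.93 without 5 days, its hippocampal level there being 3.02 CPM, against 44.6 CPM in cortex.

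Partners of the receptors differed between the tissues as well. The list held 61 genes of transporters, enzymes, auxiliary subunits, ligands and scaffolds. Of 60 tested 14 were higher in hippocampus, 10 were lower and 36 did not pass (median log2 fold change 0.04). Of all genes 7.6% were higher and 9.26% lower. Of 11 AMPA auxiliary genes 4 were higher and 4 lower. Shisa6, an auxiliary protein that keeps AMPA receptors from desensitizing, averaged 43.7 ± 19.5 CPM in hippocampus and 4.86 ± 1.61 CPM in cortex (SD, n = 9; log2 fold change 3.12 ± 0.20), while Gsg1l, an auxiliary protein that slows their recovery, was lower in hippocampus (-1.42 ± 0.17). C1ql2, a ligand that gathers kainate receptors at mossy fibre synapses and is also 1 of the hippocampal markers, was higher by 4.16 ± 0.30 on the log2 scale. Kctd12, an auxiliary subunit of GABA-B receptors, averaged 67.6 ± 20.4 CPM in hippocampus and 27.7 ± 7.68 CPM in cortex (1.28 ± 0.11).

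Among 21 scaffold genes 3 were higher and 3 lower, and the Homer genes, which tie group I metabotropic receptors to the postsynaptic density, split. Homer3 was higher in hippocampus (1.30 ± 0.12) and Homer1 lower (-0.83 ± 0.09). Dlg1, a scaffold of glutamate receptors, was lower (-0.85 ± 0.10), as was Cbln2, a cerebellin that binds delta receptors (-1.74 ± 0.17). Of 15 genes for transporters and enzymes of glutamate and GABA 3 were higher and 1 was lower.

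Exposure was then compared with control, with 1 control library per tissue. For UPM of any length, 0 of 31 members passed by edgeR, DESeq2 or limma-voom, where 0.0% of all genes passed by edgeR. An unadjusted p under 0.05 by edgeR was seen for 0 members and for 1.83% of all genes. The smallest p belonged to Gria1, with a log2 fold change of -0.30 ± 0.16 (16 against 2 libraries, adjusted p = 0.98), followed by Grik2 (-0.45 ± 0.26), Gabra3 (0.47 ± 0.28), Gria2 (-0.18 ± 0.11) and Grid1 (-0.45 ± 0.29). Long-term UPM against control gave 0 members by the 3 tools, where 0.0% of all genes passed by edgeR. Of the members 0 had an unadjusted p under 0.05, against 1.24% of all genes. Gria1 was at -0.30 ± 0.16 and Gria2 at -0.18 ± 0.12. In hippocampus Gria1 was 769, 1080, 1330, 868 and 974 CPM at 3, 8, 12, 16 and 20 weeks, against 1370 CPM in the control. In cortex it was 378, 422, 428, 454 and 473 CPM, against 477 CPM in the control. The sum of the 9 hippocampal markers in hippocampus was 538, 620, 698, 525 and 448 CPM at these times, against 747 CPM in the control, and its part in the Gria1 values was not tested.

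The comparison of 8 to 20 weeks with control stays within 1 set of libraries (8 against 2). There 0 of 31 members passed by the 3 tools, where 0.0% of all genes passed by edgeR. Of the members 0 had an unadjusted p under 0.05, against 4.67% of all genes. The fold changes of the members ran from -0.32 for Grin3a to 0.42 for Gabrd, with a median SE of 0.12. Gabrd was 12.3, 9.12, 20.8 and 15.7 CPM at 8, 12, 16 and 20 weeks in hippocampus, against 9.86 CPM in its control. In cortex it was 41.3, 38.6, 38.1 and 32.7 CPM, against 30.3 CPM in the control, where the striatal sums were 880, 780, 660 and 174 CPM, against 417 CPM in the control. The part of striatal RNA in these values was not tested. The other members with the smallest p were Gria2 (-0.16 ± 0.08), Grid1 (-0.22 ± 0.11) and Gria1 (-0.23 ± 0.13), with an adjusted p of 0.994 each by edgeR.

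Short-term UPM against control crosses the 2 sets, and there 1 member passed, against 1.94% of all genes (0.316% higher and 1.62% lower). Gabrg1, a gamma subunit found in a few brain regions and in glia, had 33.6, 27.7 and 22.4 CPM at 3, 5 and 7 days in hippocampus, against 18.9 CPM in the control, and 30.6, 30.1 and 30.6 CPM in cortex, against 14.6 CPM. All 6 short-term values were above both controls, a separation that was not counted over all genes (0.81 ± 0.21, adjusted p = 0.0464). The sum of 4 astrocyte markers was 951, 951 and 846 CPM at these times in hippocampus, against 730 CPM in the control, and 757, 747 and 759 CPM in cortex, against 571 CPM. Its part in the Gabrg1 values was not tested. The call was lost when either control or any of 5 of the 6 short-term libraries other than hippocampus at 7 days was left out, with fold changes of 0.63 to 0.99, and with exposure time as a block (adjusted p = 0.0854), and it was 0.63 and not called with scaling by total counts alone. Of the other members, Grin3b had -0.72 ± 0.21, Grin2a -1.29 ± 0.42, Grik2 -0.67 ± 0.26 and Gria4 -0.39 ± 0.17, and none of these passed by edgeR (7 members with an unadjusted p under 0.05, Gabrg1 included, where 21.9% of all genes had one; 2 calls by DESeq2, namely Gabrg1 and Grin3b).

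Long-term was compared with short-term UPM within each tissue (5 against 3 libraries). In hippocampus 0 of 31 members passed by edgeR and by limma-voom, where 0.23% of all genes passed (0.19% higher and 0.0394% lower). Of the members 7, or 22.6%, had an unadjusted p under 0.05, against 21.0% of all genes, and DESeq2 called Grin2a, Grin2c and Grin3b. Grin2c, an NMDA subunit also made by astrocytes, had 25.2, 28.8, 31.9, 31.2 and 27.8 CPM at 3, 8, 12, 16 and 20 weeks, against 13.1, 19.6 and 16.9 CPM at 3, 5 and 7 days (0.82 ± 0.18, adjusted p = 0.055). Its long-term values all lay above the short-term ones, a separation that was not counted over all genes. Grin3b (0.73 ± 0.17), Grin2a (1.46 ± 0.45), Gabrg1 (-0.60 ± 0.20) and Grm8 (1.02 ± 0.39) followed. In cortex 0 members passed by edgeR and limma-voom, where 0.0% of all genes passed by edgeR. Again 7, or 22.6%, had an unadjusted p under 0.05, against 20.6% of all genes, and DESeq2 called Gabrg1 and Gabra3. Gabrg1 had the smallest p, with 21.0, 15.3, 16.3, 17.5 and 16.0 CPM at 3 to 20 weeks, against 30.6, 30.1 and 30.6 CPM at 3, 5 and 7 days (-0.82 ± 0.15, adjusted p = 0.0766), ahead of Gabra3 (-0.51 ± 0.16), Gabra2 (-0.60 ± 0.20), Grin3b (0.62 ± 0.23) and Grin3a (-0.49 ± 0.19).

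These comparisons turned on the 3-week libraries, which the labels place with the long-term group and the column names with the early set. Without the 3-week library, 4 members passed in hippocampus, where 14.5% of all genes did, and 8 in cortex, where 20.5% did, and the remaining contrast was then one of set against set. In hippocampus Grin2a, Grin2c and Grin3b were higher in long-term libraries and Gabrg1 lower. In cortex Grm4, Grid1, Grik2 and Grin3b were higher and Gabrg1, Gabra2, Gabra3 and Grin3a lower. In the test of the difference between the tissues, 0 members passed by edgeR, DESeq2 or limma-voom, where 0.0% of all genes did by edgeR (3 members, or 9.68%, had an unadjusted p under 0.05, against 8.03% of all genes). The smallest p was that of Grin2c, whose change was larger in hippocampus by 0.80 ± 0.25 on the log2 scale (adjusted p = 0.403), followed by Grm8 (1.06 ± 0.43), Grik5 (-0.60 ± 0.25), Gria1 (-0.37 ± 0.22) and Grin1 (-0.38 ± 0.23).

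The comparison of 3 weeks with 3 to 7 days, all early libraries (2 against 6), gave 0 of 31 members by edgeR, DESeq2 or limma-voom. By edgeR 0.0% of all genes passed, and 1 member, or 3.23%, had an unadjusted p under 0.05, against 4.32% of all genes. That member was Gabrb2, at 411 CPM in hippocampus and 555 CPM in cortex at 3 weeks, against 246 to 359 CPM in hippocampus and 342 to 437 CPM in cortex at 3 to 7 days (0.49 ± 0.16, adjusted p = 0.999). Over 3 to 20 weeks, 0 of 31 members had a slope that passed by edgeR or limma-voom, where 3.46% of all genes did (1.01% upward and 2.45% downward), and 8, or 25.8%, had an unadjusted p under 0.05, against 26.2% of all genes. Gabrb1 had a slope of 0.29 ± 0.08 and Gabrb2 of -0.38 ± 0.10 (log2 per 10 weeks, adjusted p = 0.0533 and 0.0572), and DESeq2 called both. Grik2 (0.36 ± 0.13), Gria3 (0.20 ± 0.08) and Grm2 (-0.29 ± 0.12) followed. The slope of Gabrb2 was 0.00 ± 0.07 without the 3-week libraries, its levels at 8, 12, 16 and 20 weeks being 331, 329, 330 and 332 CPM in cortex. Without those libraries Gabrb1 was at 0.16 ± 0.09, Grik2 at 0.08 ± 0.13 and Grm2 at -0.07 ± 0.13, while Gria3 was at 0.28 ± 0.10. For the slope, leaving out the 3-week libraries was a setting added after seeing the data.

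The split between the 2 sets of libraries was therefore described on its own. In 3 days to 3 weeks against control and 8 to 20 weeks (8 against 10 libraries, tissue as a covariate) 13 of 31 members passed, 6 higher and 7 lower, where 39.6% of all genes passed, 20.4% higher and 19.2% lower. The share of members was thus near that of all genes. The set follows the naming of the columns and also the time of exposure, so an effect of UPM, age or library preparation cannot be told apart.

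The 6 that stood higher in the early set, as 20.4% of all genes did, were Gabrg1, Gabra2, Gabra3, Gabrb2, Grm3 and Grm5. Gabrg1 had 21.0, 28.9 and 33.6 CPM (lowest, median, highest) in the early set, against 14.5, 16.4 and 19.4 CPM in the other set, without overlap, as for 7.98% of all genes (0.73 ± 0.10, adjusted p = 6.2e-06). Gabra2 (0.47 ± 0.12), Gabra3 (0.45 ± 0.14), Gabrb2 (0.38 ± 0.09), Grm3 (0.25 ± 0.08) and Grm5 (0.18 ± 0.06) were smaller changes. With scaling by total counts alone, Gabra2, Gabra3, Gabrb2, Grm3 and Grm5 no longer passed, and Grm5 was at -0.01. That scaling also moved the median of all genes downward, as given in the closing section. The call of Grm5 held in 10 of 18 fits that left out 1 library, and was lost without hippocampus at 3 or 5 days or at 8, 16 or 20 weeks, or cortex at 3 or 7 days or 20 weeks (0.14 to 0.17). That of Grm3 was lost without hippocampus at 3 weeks or cortex at 3 days.

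The 7 that stood lower in the early set, as 19.2% of all genes did, were Grin2a, Grin2b, Grin2c, Grin3b, Grik2, Grid1 and Gabbr1. No family was tested as a set. Grin2a had 2.06, 2.65 and 4.25 CPM in the early set, against 3.09, 7.47 and 11.7 CPM in the other (-1.27 ± 0.21, adjusted p = 3.69e-05), with overlap only through cortical libraries. Grin3b had 11.6, 14.7 and 21.9 CPM, against 23.0, 24.5 and 27.4 CPM, without overlap (-0.63 ± 0.12), within the limit of its shared reads given above. Grik2 (-0.55 ± 0.13), Grid1 (-0.54 ± 0.16), Grin2c (-0.43 ± 0.12), Grin2b (-0.32 ± 0.12) and Gabbr1 (-0.20 ± 0.06) were lower as well, the call of Grin2b being lost without hippocampus at 5 days or 3 weeks or cortex at 5 or 7 days.

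**Figure D5:**
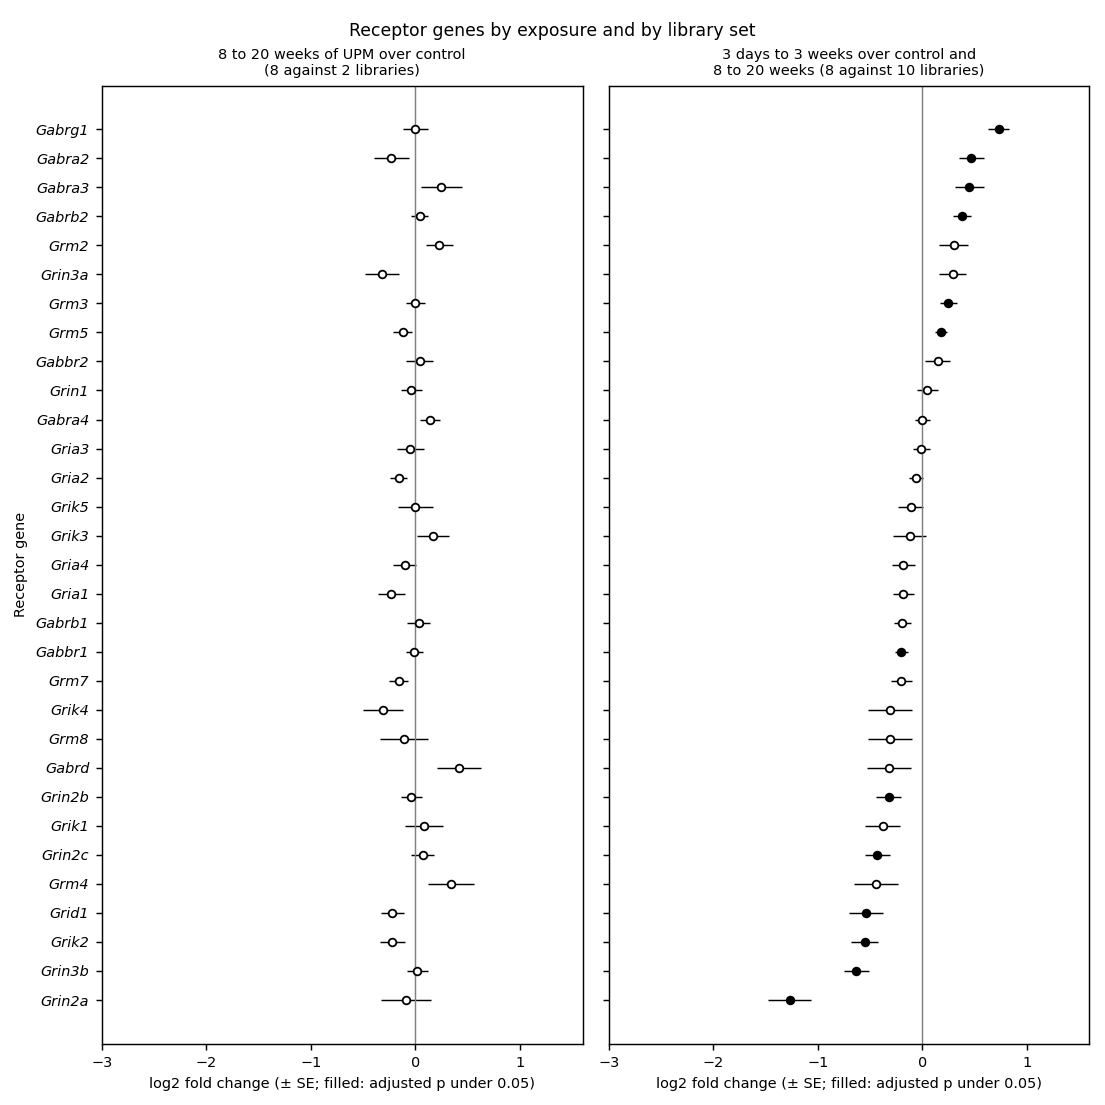
Log2 fold change of each receptor gene with its SE for 8 to 20 weeks of UPM over control (left, 8 against 2 libraries) and for 3 days to 3 weeks over control and 8 to 20 weeks (right, 8 against 10 libraries); filled points passed at an adjusted p under 0.05. No point is filled on the left, where values run from -0.32 to 0.42, and 13 are filled on the right, from -1.27 for Grin2a to 0.73 for Gabrg1.

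Of 60 partner genes tested, 2 were higher for short-term UPM against control, where 0.316% of all genes were. This comparison crosses the 2 sets of libraries. The 2 genes were Glul, the enzyme that turns glutamate into glutamine in astrocytes (0.72 ± 0.17), and the scaffold Homer2 (0.67 ± 0.17). The astrocyte marker sums given beside Gabrg1, 846 to 951 CPM in hippocampus and 747 to 759 CPM in cortex for short-term UPM, against 730 and 571 CPM in the controls, belong to the same libraries, and their part in the Glul difference was not tested. The vesicular glutamate transporter gene Slc17a6 was the 1 of 58 tested that had a slope over 3 to 20 weeks (-0.68 ± 0.13 per 10 weeks). Of all genes 2.45% had a downward slope. The thalamic and habenular markers, a list that includes Slc17a6 itself, summed to 280, 401, 201, 245 and 210 CPM in hippocampus at 3, 8, 12, 16 and 20 weeks. In cortex they summed to 377, 406, 332, 278 and 264 CPM, and their part in the slope of Slc17a6 was not tested. Between the sets 11 were higher and 13 lower in the early set, of 57 tested, where 39.6% of all genes passed. Among them Slc32a1, which loads GABA into vesicles, was lower (-1.10 ± 0.20), as was Nlgn2, which organizes inhibitory synapses (-0.99 ± 0.08), while the postsynaptic scaffold Dlg4 was higher (0.82 ± 0.08). The 6 genes named here were chosen after their values were seen.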

How the data were processed

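Values were counts of sequencing reads per gene, which the authors deposited as 1 table per library with 23282 lines; the submitters' processing notes name Bowtie2, bedtools and edgeR and the mm10 build, and the annotation and strand setting are not given in the sources used here. The counts were used as deposited, after 27 symbols written as dates in 2 files were restored from the other files. A column of 1 library is 1 pool of mice.

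Counts were scaled by TMM and tested over all genes that passed filterByExpr with the quasi-likelihood test of edgeR 4.0.16 (R 4.3.3), with Benjamini-Hochberg adjustment and a threshold of 0.05. SE is the size of the log2 fold change divided by the square root of F. Tissue was compared with exposure time as a factor, and long-term with short-term UPM within each tissue. Control, slope and set comparisons took both tissues with tissue as a covariate. Alternatives were DESeq2 1.42.0, limma-voom 3.58.1, other scalings, no filter, replicate blocks and leaving out libraries. The scripts were tested on simulated data. Ratios of 5 subunit pairs used log2(CPM + 0.5) and exact two-sided sign-flip permutation tests (scipy 1.17.1). Libraries of the same time share the exposure time and the naming style of their columns, and the labels give no pairing by mouse. Residuals correlated by -0.14 to 0.17 for the same time and by -0.18 to 0.18 for different times.

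The text names every member called, up to 12 in each direction, and otherwise the 5 members with the smallest p. The members and gene lists were chosen with earlier results of these data known. Floors and depths cover counting error only: 1 count equals 0.112 to 0.184 CPM and 3 counts 0.335 to 0.552 CPM. The comparisons with control share 2 control libraries. Within the name pattern, 6 symbols are not reported here; they stayed in the fits over all genes.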

Additional observations from a re-analysis of the deposited data

Results flagged for a closer look

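In groups of 4 to 10 libraries, 62 sets of member values were searched for a library far from the others, and 5 were found, all at 3 weeks; chance gives about 1 in 20. In hippocampus at 3 weeks, Gabrb2 was 411 CPM, against 238 to 271 CPM in the other long-term libraries. Grm2 was 31.9 CPM there, against 17.7 to 19.8 CPM, and Grin2a was 2.65 CPM, against 9.72 to 11.7 CPM. In cortex at 3 weeks, Gabrb2 was 555 CPM, against 329 to 332 CPM, and Grid1 was 7.02 CPM, against 17.8 to 19.8 CPM. These 3-week libraries are also the long-term ones that carry the column names of the early set.

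Among symbols under the count minimum, 3 values above their controls were flagged. They are raw counts, not scaled for depth, and other values of these symbols were also above their controls. Gabrg3, a gamma subunit of GABA-A receptors, had 12 counts in hippocampus at 3 days, against 3 in the control, and 19 in cortex at 3 days, against 7. Gabrq, the theta subunit, had 24 counts in hippocampus at 8 weeks, against 6 in the control. The hypothalamic marker list summed to 69.1 CPM in that 8-week library, against at most 6.97 CPM in any other library, and its part in the Gabrq count was not tested.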

How the results depend on the processing

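Of 99 named member values under 1869 alternatives in all, 1732 kept their direction and side of the threshold, 106 lost the call, 29 gained one and 2 reversed. The 99 include uncalled values, which counted as kept while they stayed uncalled in the same direction. The 1732 therefore do not measure the stability of calls alone. The reversed values were the slope of Gabrb2 without the 3-week libraries (0.00) and the early-set difference of Grm5 with scaling by total counts alone (-0.01). Under that scaling the median of all genes moved by -0.19 in the set comparison. The 16 calls between the tissues became 18 by DESeq2 and by limma-voom, each adding Gria2 and Gabbr2, 17 with total counts alone (Gria2 added) and 17 with no filter (Gabbr2 added), 13 with no replicate block for exposure time and 10 without 5 days, 8, 12 and 16 weeks, a setting added after seeing the data that leaves fewer libraries. Within 3 days to 3 weeks, 3 to 7 members passed when 1 library was left out. For long-term against short-term UPM in hippocampus, members called were 3 by DESeq2, 2 with total counts alone, 1 with no filter and 0 to 4 with 1 library left out. In cortex they were 2 by DESeq2, 1 with no filter and 0 to 8 with 1 library left out. For short-term UPM against control they were 2 by DESeq2, 0 with no filter, 0 with exposure time as a replicate block and 0 to 1 with 1 library left out. For the slope they were 2 by DESeq2, 1 with total counts alone and 0 to 3 with 1 library left out (2 without hippocampus and 3 without cortex at 8 weeks). The cause of these shifts was not tested. Grin2a, Gabrd and Grm8 had the lowest counts of any member in a single library, 12, 16 and 18.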
